A study of Mus musculus with 16 samples.

Results

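The genes described here are 10 transcripts of the ATF4 and mitochondrial stress response. They were the rows of a gene count table whose Ensembl identifiers carry the symbols Atf4, Atf5, Asns, Phgdh, Psat1, Shmt2, Mthfd2, Trib3, Fgf21 and Gdf15, which is 10 of the 55487 genes in the table. No measured value enters this choice. Poly(A) RNA from the heart apex was sequenced in 16 male mice, 4 in each of 4 groups. Ctrl animals were labelled WT, and KO animals lacked Cardinal, a cardiac long noncoding RNA annotated in mouse as Gm12295. In each genotype, 4 mice had transverse aortic constriction (TAC), which loads the left ventricle with pressure, and 4 had a sham operation without the ligature. All hearts were collected 4 weeks after surgery, and the ages of the animals are not given in the sources used here. No Cre driver or transgene is named for the knockout, and the libraries hold every cell type of the apex.

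The integrated stress response couples damage to gene expression. Kinases that sense unfolded protein, missing amino acids, viral RNA or low heme phosphorylate the initiation factor eIF2alpha, which slows general translation while the message for the transcription factor ATF4 is translated more. Failing mitochondria reach the same switch through the protease OMA1 and its substrate DELE1. ATF4 and its relative ATF5 then raise genes for asparagine, serine and one-carbon metabolism, amino acid import and tRNA charging, and the secreted hormones FGF21 and GDF15. In the heart this program is best known from mitochondrial cardiomyopathy. Because ATF4 is set largely by translation, its transcript level is not a measure of its protein, and no protein was measured in these libraries.

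A sequence feature that the choice of symbols did not use is the composite site bound by ATF4 with a C/EBP partner, known as the amino acid response element. Its core, TGATGNAA, was searched on both strands of RefSeq promoter windows (GRCm38.p6) that span 250 bases before and 50 bases after each annotated start. The 10 genes had 13 such windows, and the core was present for 3 of the 10 genes, Asns, Fgf21 and Trib3. Over all promoters it was present for 1219 of 27025 gene symbols, and in 3.97% of the 32851 windows. The Asns stretch (minus strand, chr6:7693210-7693309) and the Fgf21 stretch (minus strand, chr7:45615551-45615650) are shown because they hold the core upstream of the RefSeq start. For Trib3 (minus strand, chr2:152344026-152344055) the 30 bases around its match, which lies after the RefSeq start, are shown. The last 100 bases before the RefSeq start of Gdf15 (minus strand, chr8:70632457-70632556) and Mthfd2 (minus strand, chr6:83317605-83317704) are given for comparison. These genes rose most in the data and had no match. Capitals mark the core, and each line reads 5′ to 3′ on the strand of the gene.
Asns: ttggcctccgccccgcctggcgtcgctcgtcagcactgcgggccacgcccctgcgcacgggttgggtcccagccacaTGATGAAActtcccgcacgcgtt
Fgf21: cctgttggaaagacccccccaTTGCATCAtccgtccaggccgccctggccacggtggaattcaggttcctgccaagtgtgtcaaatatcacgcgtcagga
Trib3: agctcaggtTTACATCAgccgggcggggat
Gdf15: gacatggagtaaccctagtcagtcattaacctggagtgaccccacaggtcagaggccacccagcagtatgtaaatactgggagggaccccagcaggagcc
Mthfd2: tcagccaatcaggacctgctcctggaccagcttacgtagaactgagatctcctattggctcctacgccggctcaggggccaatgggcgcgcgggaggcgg

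The core began 23 bases before the RefSeq start in Asns, read forward, and 139 bases before it in Fgf21, read on the opposite strand. In Trib3 it covered bases 15 to 22 of the RefSeq transcript, also on the opposite strand. Gene positions given below are from GENCODE, which has the same start for Fgf21 and Gdf15. Its starts differ for Asns (7693254), Trib3 (152344032) and Mthfd2 (83325908). Against these, the Asns match and the Mthfd2 stretch lie inside the gene, and the Trib3 match lies before it. Windows of Atf4, Atf5, Phgdh, Psat1, Shmt2, Mthfd2 and Gdf15 held no match to these letters. The cyclic AMP response element TGACGTCA was in 1.79% of all windows and in 0 of the 13. A match is a description of the letters and not a measured binding site.

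Total counts per library ranged from 53169437 to 79404714, and mitochondrially encoded genes took 21.9% to 28.8% of them. Levels are given as CPM, the usual read counts scaled to a common library total (here TMM-scaled), and group values as mean ± SD (n = 4). Cardinal was present at 3.24 to 3.86 CPM in Ctrl sham hearts, 2.69 to 8.02 CPM in Ctrl TAC hearts and 0.297 to 0.553 CPM in KO sham hearts. Of the KO TAC libraries, 3 held Gm12295 at 0.276 to 0.371 CPM. The library labelled KO TAC 4 held it at 4.55 CPM, which goes against its label. Test results of the 10 transcripts in KO TAC hearts are therefore also given without that library, except those of Fgf21. The counts over the lists are given both ways too. Ctrl TAC 2 also stood apart, with 63.8 CPM of 4 summed hepatocyte markers against at most 5.91 CPM elsewhere. The 6 cardiomyocyte markers of the labelled tissue summed to 33631 CPM or more in every library.

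The 10 transcripts covered a wide range of levels. Per kilobase of annotated exon, Atf4 (26.5 CPM per kb, mean of 16 libraries) and Atf5 (21.8) were the highest, followed by Shmt2 (10.4) and Gdf15 (3.12). Trib3 (1.08), Mthfd2 (0.958), Psat1 (0.722), Asns (0.643) and Phgdh (0.406) followed. The ranges of neighbours in this order overlapped over the libraries, except between Atf5 and Shmt2 and between Shmt2 and Gdf15. Gdf15 was at 0.935 CPM per kb in Ctrl sham and 6.40 CPM per kb in KO TAC hearts. Fgf21 was at 0.0205 CPM per kb, below every library of Phgdh, and did not pass the filter on low counts. The other 9 were tested, among 18275 genes in all.

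Pressure overload changed 5 of the 9 tested transcripts in Ctrl hearts and 5 in KO hearts, and these sets were not identical. Gdf15, Mthfd2, Psat1 and Atf4 rose in both genotypes. Shmt2 fell in Ctrl hearts and Atf5 rose in KO hearts, while Asns, Phgdh and Trib3 did not pass the test in either. In the edgeR quasi-likelihood test at a Benjamini-Hochberg adjusted p under 0.05, 10.4% of all genes tested rose and 9.60% fell in Ctrl TAC vs Ctrl sham (20.0% in all). In KO TAC vs KO sham the shares were 17.8% and 16.5% (34.3% in all). Libraries of the 2 groups did not overlap for 4 of the 9 in Ctrl hearts (3 higher, 1 lower), against 20.5% of all genes (10.5% higher). In KO hearts this held for 6 of the 9 (5 higher, 1 lower), against 34.6% of all genes (18.0% higher). With KO TAC 4 left out, 4 of the 9 rose in KO hearts (31.0% of all genes were called), 7 of the 9 did not overlap (38.6% of all genes), and the median was 0.32. The median log2 fold change of the 9 transcripts was 0.31 in Ctrl hearts and 0.39 in KO hearts, and that of all genes was 0.00 and -0.00. The 2 comparisons share no animals. Adjusted p values below are from this test over all 18275 genes, with a log2 fold change given ± SE.

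**Figure D1:**
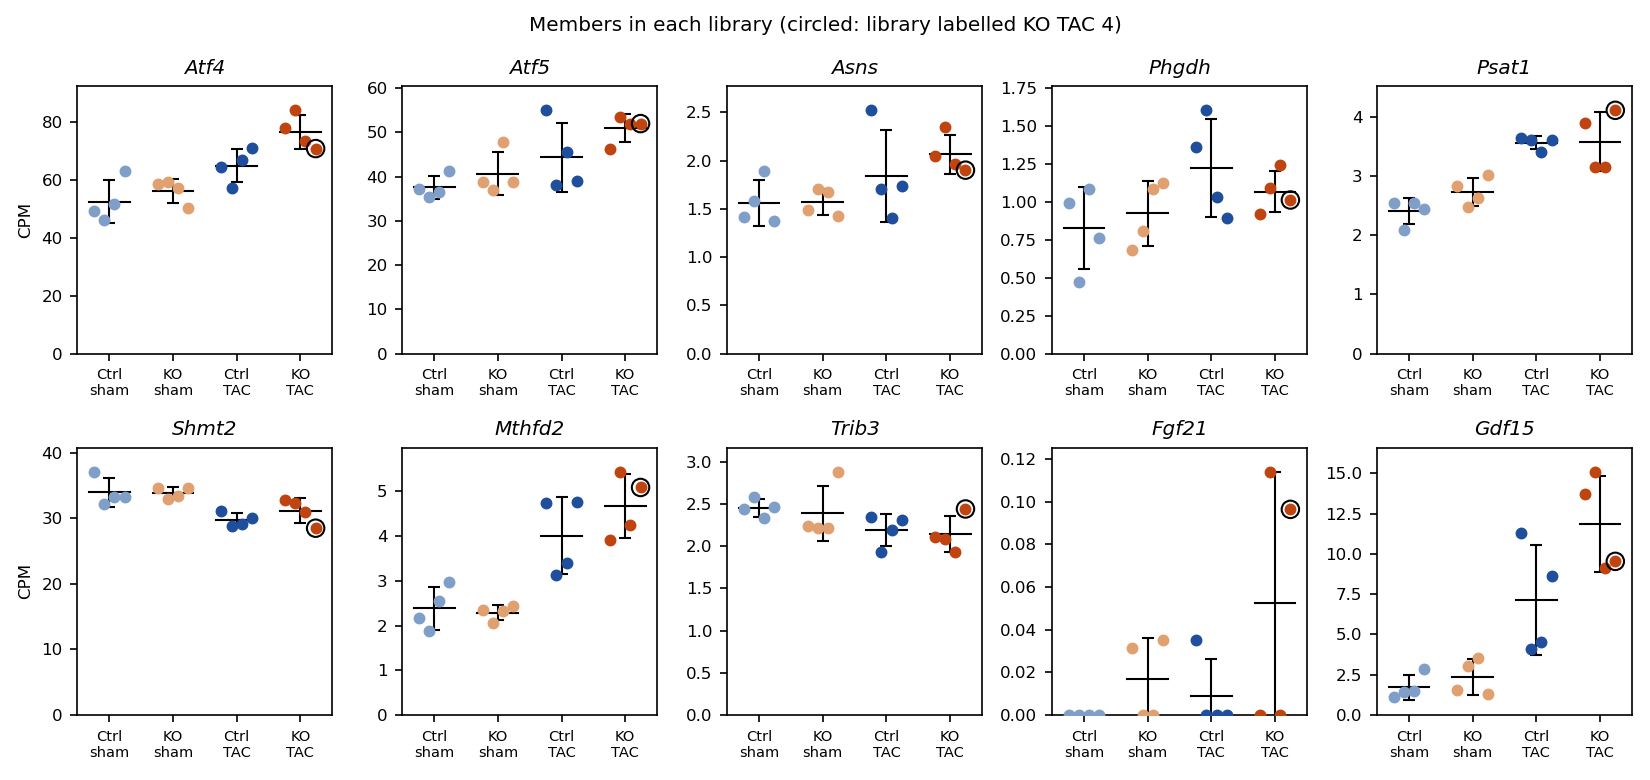
CPM of each of the 10 transcripts in the 16 libraries by group, on linear axes from 0; points are libraries, horizontal lines are group means and error bars are SD (n = 4), and the circled point is the library labelled KO TAC 4. The Gdf15 and Mthfd2 points of both TAC groups lie above those of the matching sham group, and the Shmt2 points lie below.

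Among the transcription factors, Atf4 encodes the effector of the pathway. It lies on the plus strand at chr15:80255184-80257541 (GRCm38, as all positions here). Its level was 49.1, 45.9, 51.7 and 62.9 CPM in Ctrl sham libraries 1 to 4 and 64.2, 57.2, 66.9 and 71.0 CPM in Ctrl TAC libraries 1 to 4. Ctrl sham 4 lay above the lowest Ctrl TAC library, so these groups overlapped. In KO hearts it was 58.4, 59.2, 57.0 and 50.1 CPM after sham surgery and 77.7, 83.9, 73.2 and 70.7 CPM after TAC, with no overlap. The rise was 1.24-fold in Ctrl hearts (log2 0.31 ± 0.09, adjusted p = 0.0209) and 1.36-fold in KO hearts (0.44 ± 0.09, adjusted p = 0.000834, and 0.48, adjusted p = 0.00112, without KO TAC 4). The Ctrl call was not kept when Ctrl sham 1, Ctrl sham 2 or Ctrl TAC 4 was left out (adjusted p 0.0696 to 0.0764).

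Atf5, whose product drives mitochondrial chaperone and protease genes in the mitochondrial unfolded protein response, lies on the minus strand at chr7:44812256-44816658. The libraries were at 37.17, 35.28, 36.64 and 41.32 CPM in Ctrl sham and 54.96, 37.97, 45.55 and 38.98 CPM in Ctrl TAC hearts. KO sham libraries were at 38.76, 36.97, 47.81 and 38.93 CPM and KO TAC libraries at 46.34, 53.50, 52.04 and 52.03 CPM. Both pairs of groups overlapped, and the highest Ctrl value was that of Ctrl TAC 1. The log2 fold change was 0.24 ± 0.10 in Ctrl hearts (adjusted p = 0.122, and 0.12 with 0.401 without Ctrl TAC 1) and 0.33 ± 0.10 in KO hearts (adjusted p = 0.0209, and 0.0463 without KO TAC 4). The KO call was lost without KO sham 1, 2 or 4 or KO TAC 2 (0.0559 to 0.0664), and Atf5 passed in Ctrl hearts without Ctrl TAC 2 (adjusted p = 0.0483). Its exons share 82 bases each with Nup62 and Il4i1 on the opposite strand, and the strand setting of the counting is not given in the sources used here.

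Of the 3 amino acid synthesis enzymes, Psat1 rose while Phgdh and Asns did not pass the test. Psat1 (minus strand, chr19:15904678-15947337) encodes phosphoserine aminotransferase, the middle step of serine synthesis. It was at 2.55, 2.08, 2.54 and 2.44 CPM in Ctrl sham and 3.64, 3.60, 3.41 and 3.61 CPM in Ctrl TAC hearts. In KO hearts the values were 2.83, 2.48, 2.62 and 3.02 CPM after sham surgery and 3.89, 3.15, 3.16 and 4.11 CPM after TAC. Neither pair of groups overlapped. The rise was 1.48-fold in Ctrl hearts (log2 0.57 ± 0.12, adjusted p = 0.00180) and held in each of the 16 fits that left out 1 library. In KO hearts it was 1.31-fold (0.39 ± 0.11, adjusted p = 0.0135), and without KO TAC 4, which had the highest value, it no longer passed (0.31, adjusted p = 0.0560).

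Phgdh (minus strand, chr3:98313170-98339990), the enzyme of the first step of serine synthesis, was low and scattered. Ctrl sham libraries were at 0.469 to 1.08 CPM, KO sham at 0.680 to 1.12, Ctrl TAC at 0.891 to 1.60 and KO TAC at 0.921 to 1.24 CPM, and the 4 groups overlapped. Its log2 fold change was 0.56 ± 0.25 in Ctrl hearts (adjusted p = 0.131) and 0.21 ± 0.25 in KO hearts (0.566, and 0.575 without KO TAC 4). Psph, the last step, was at 3.69 ± 0.531 CPM in Ctrl sham and 3.36 ± 0.455 CPM in Ctrl TAC hearts and fell in KO hearts (-0.39 ± 0.13, adjusted p = 0.0255, lost without KO sham 2 or 4 or KO TAC 1 or 2). In KO hearts the route thus held 1 enzyme that rose, 1 that fell and 1 that did not pass.

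Asns (minus strand, chr6:7675169-7693254) encodes asparagine synthetase, a classical ATF4 target and 1 of the 3 genes with the core element in its promoter window. Its libraries were at 1.41, 1.58, 1.89 and 1.37 CPM in Ctrl sham and 2.52, 1.70, 1.40 and 1.74 CPM in Ctrl TAC hearts, which overlapped. KO sham libraries were at 1.49, 1.70, 1.67 and 1.42 CPM and KO TAC libraries at 2.05, 2.35, 1.96 and 1.90 CPM, which did not. The log2 fold change was 0.23 ± 0.17 (adjusted p = 0.376) in Ctrl hearts, and 0.05 without Ctrl TAC 1, the highest library. In KO hearts it was 0.40 ± 0.17 with an adjusted p of 0.0770 (0.44 and 0.0836 without KO TAC 4), but it passed in a fit to the 8 KO libraries alone (0.0423), with a term for the animals whose numbers start with 25 (Ctrl TAC 2 to 4 and KO TAC 4, 0.0193), and without Ctrl TAC 1 (0.0380).

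Of the enzymes of mitochondrial one-carbon metabolism, Mthfd2 rose in both genotypes and Shmt2 fell in Ctrl hearts. Mthfd2 (minus strand, chr6:83305691-83325908) oxidizes the one-carbon unit carried by folate in mitochondria and is low in most adult tissues. Its level was 2.17, 1.87, 2.54 and 2.97 CPM in Ctrl sham and 4.75, 3.14, 3.41 and 4.76 CPM in Ctrl TAC hearts. KO sham libraries were at 2.36, 2.05, 2.32 and 2.43 CPM and KO TAC libraries at 3.91, 5.44, 4.26 and 5.09 CPM. Every TAC library lay above every sham library of its genotype. The rise was 1.69-fold in Ctrl hearts (log2 0.75 ± 0.16, adjusted p = 0.00313) and 2.04-fold in KO hearts (1.03 ± 0.16, adjusted p = 9.09e-05, and 0.99, adjusted p = 0.000467, without KO TAC 4).

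Shmt2 (minus strand, chr10:127517123-127522444), which moves the one-carbon unit from serine to folate in mitochondria and so acts just before Mthfd2, had a lower mean after TAC. It was at 37.1, 32.2, 33.2 and 33.3 CPM in Ctrl sham and 31.1, 28.8, 29.1 and 30.1 CPM in Ctrl TAC hearts, with no overlap. KO hearts were at 34.6, 33, 33.4 and 34.6 CPM after sham surgery and 32.8, 32.3, 31.0 and 28.5 CPM after TAC, again with no overlap. The fall was called in Ctrl hearts (-0.19 ± 0.05, adjusted p = 0.0202), but not without Ctrl sham 1 (-0.14, adjusted p = 0.0839) or with the term for numbers starting with 25 (-0.09, 0.401). In KO hearts the difference was -0.12 ± 0.05 (adjusted p = 0.0906), and -0.08 (0.279) without KO TAC 4, the lowest KO TAC library. Its exons share 32 bases with Ndufa4l2 on the opposite strand.

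Trib3 (minus strand, chr2:152337422-152344032), a pseudokinase that is induced by ATF4 and dampens its activity, did not pass the test. Ctrl sham libraries were at 2.33 to 2.58 CPM, KO sham at 2.22 to 2.88, Ctrl TAC at 1.93 to 2.34 and KO TAC at 1.93 to 2.44 CPM. The log2 fold change after TAC was -0.16 ± 0.12 in Ctrl (adjusted p = 0.394) and -0.16 ± 0.12 in KO hearts (0.354, and -0.22 with 0.215 without KO TAC 4). The 95% intervals, -0.42 to 0.09 and -0.41 to 0.10, had their upper ends below the rises of Mthfd2, Psat1 and Gdf15.

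Of the secreted hormones, Gdf15 had the largest change of the 9. It lies on the minus strand at chr8:70629393-70632456 and encodes a stress-induced member of the TGF-beta family that signals to the hindbrain. It was at 1.13, 1.41, 1.52 and 2.87 CPM in Ctrl sham and 11.3, 4.12, 4.53 and 8.62 CPM in Ctrl TAC hearts. KO sham libraries were at 1.55, 3.06, 3.56 and 1.30 CPM and KO TAC libraries at 13.7, 15.1, 9.10 and 9.54 CPM. Neither pair overlapped, although Ctrl TAC 2 and 3 lay close to the highest sham hearts. The rise was 4.18-fold in Ctrl hearts (log2 2.06 ± 0.42, adjusted p = 0.00327) and 5.01-fold in KO hearts (2.32 ± 0.41, adjusted p = 0.000549, and 2.42, adjusted p = 0.000981, without KO TAC 4). Both calls held in each of the 16 fits with 1 library left out.

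Fgf21 (minus strand, chr7:45613886-45615490), the other hormone of the pathway, was at the edge of detection. It had 2 counts in KO sham 1, in KO sham 4 and in Ctrl TAC 1, and 7 and 8 counts in KO TAC 2 and KO TAC 4. The remaining libraries, all of Ctrl sham among them, had 0 counts, which allows up to 3 counts in each (0.0418 to 0.0587 CPM in Ctrl sham hearts, counting error only). Exact two-sided permutation tests of log2 CPM over 70 relabellings gave adjusted p of 0.457 to 0.886 over 4 comparisons, where the smallest unadjusted p the design allows is 0.0286. A single fully separated comparison could not pass the adjusted threshold, so neither this depth nor this number of animals could show a difference in Fgf21. No Fgf21 test is given without KO TAC 4, which had the highest count (8).

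**Figure D2:**
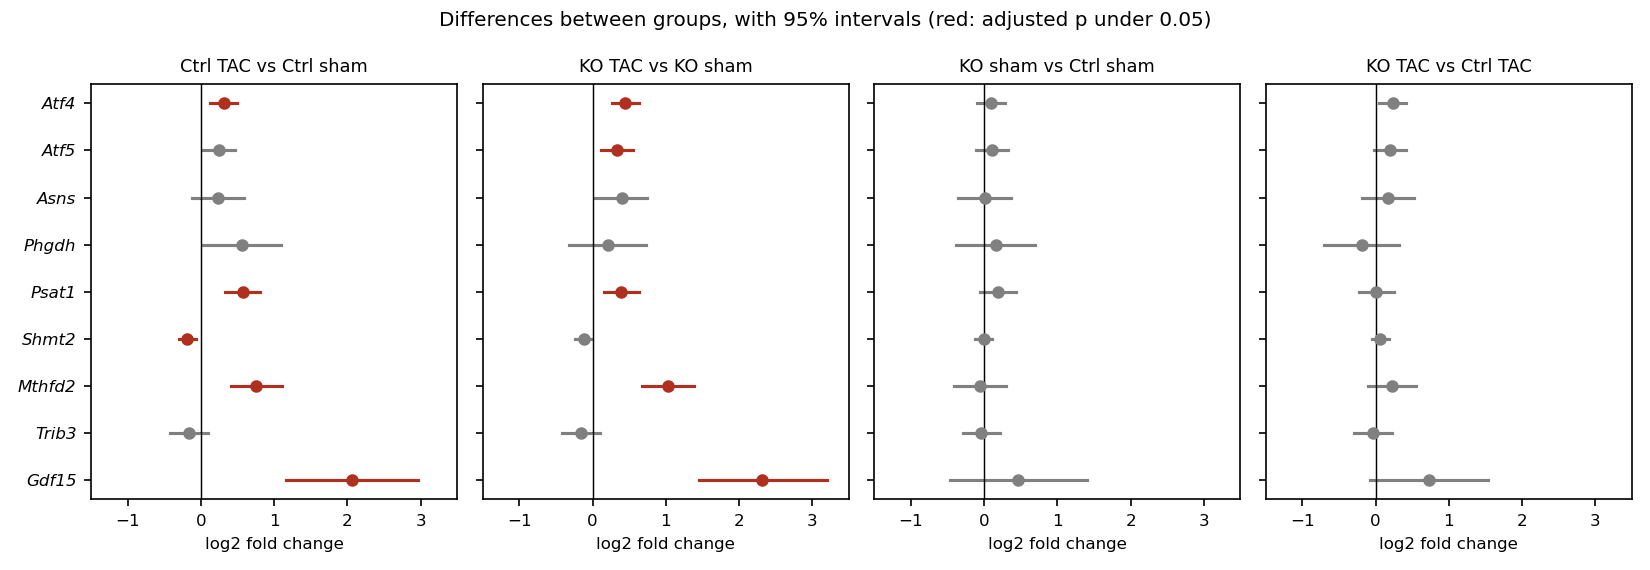
Log2 fold change of the 9 tested transcripts in 4 comparisons, with points for the estimate, lines for its 95% interval from the edgeR fit and red for an adjusted p under 0.05. Red points appear in both comparisons of TAC with sham, and none appear in the comparisons of KO with Ctrl.

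Marker RNA of several cell types also moved between these groups, and in bulk tissue fewer cells of a type and less RNA per cell cannot be told apart. The 6 fibroblast markers summed to 468 to 545 CPM in Ctrl sham and 489 to 514 CPM in KO sham hearts, and to 770 to 1161 CPM in Ctrl TAC and 1337 to 1464 CPM in KO TAC hearts (1420 to 1464 without KO TAC 4). Of these markers 3 rose in Ctrl and 6 in KO hearts. The 6 macrophage markers summed to 86.3 to 114 CPM in Ctrl sham, 78.4 to 96.2 in KO sham, 118 to 125 in Ctrl TAC and 107 to 135 CPM in KO TAC hearts, and 2 rose in Ctrl and 5 in KO hearts. Cardiomyocyte markers summed to 44749 to 52566 CPM in Ctrl sham, 45514 to 50759 in KO sham, 39133 to 43074 in Ctrl TAC and 33631 to 35371 CPM in KO TAC hearts, with 4 of 6 lower in Ctrl and 5 of 6 lower in KO hearts. Without KO TAC 4 the KO TAC ranges of the macrophage and cardiomyocyte sums and the counts of markers called in KO hearts were the same. No fibroblast, macrophage or cardiomyocyte marker was at 0 in a whole group. The part of these cell types in the changes of the pathway was not tested.

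Whether the loss of Cardinal changed the pathway was asked in sham hearts, in TAC hearts and as the interaction of genotype with surgery. In KO sham vs Ctrl sham edgeR called 0 of the 9 transcripts and 0% of all genes. DESeq2 called 0 of the 9 as well, and its shares over all genes, here and below, are not reported. The unadjusted edgeR p was under 0.05 for 0 of the 9 and for 479 of all genes (2.62%). The estimates ran from -0.06 for Mthfd2 (95% interval -0.41 to 0.30) to 0.47 for Gdf15 (-0.47 to 1.41), and 0 of the 9 had libraries that did not overlap, against 1.78% of all genes. In KO TAC vs Ctrl TAC 0 of 9 were called, against 2.68% of all genes, and 0 of 9 had libraries that did not overlap, against 10.5%. Without KO TAC 4, 0 of 9 were called (2.37% of all genes), and Atf4 alone did not overlap (15.4% of all genes). DESeq2 called 0 as well. The unadjusted edgeR p was under 0.05 for 1 of the 9, Atf4, and for 18.5% of all genes.

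In TAC hearts Atf4 was 64.8 ± 5.81 CPM in Ctrl and 76.4 ± 5.78 CPM in KO animals (log2 0.24 ± 0.09, 95% interval 0.05 to 0.42, adjusted p = 0.158). The lowest KO TAC library, 70.7 CPM in KO TAC 4, was just under the highest Ctrl TAC library at 71.0 CPM. Without KO TAC 4 the difference was 0.27 (adjusted p = 0.144), and without Ctrl TAC 2 it was 0.18 (0.412). Gdf15 was 7.14 ± 3.43 CPM in Ctrl TAC and 11.9 ± 2.99 CPM in KO TAC hearts (0.73 ± 0.38, -0.08 to 1.54, adjusted p = 0.319, and 0.83, adjusted p = 0.314, without KO TAC 4). Mean levels of both were thus higher in KO TAC hearts, but neither passed the test over all genes.

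For the remaining transcripts the intervals bound the size of a genotype effect after TAC. Psat1 differed by 0.01 (-0.23 to 0.25), Shmt2 by 0.06 (-0.05 to 0.18) and Trib3 by -0.03 (-0.29 to 0.23). Mthfd2 (0.22, -0.11 to 0.55), Atf5 (0.20, -0.02 to 0.42), Asns (0.17, -0.18 to 0.52) and Phgdh (-0.19, -0.71 to 0.32) had wider intervals. Without Ctrl TAC 1 the Asns value was 0.36. Without KO TAC 4 these values were -0.07 for Psat1, 0.11 for Shmt2, -0.10 for Trib3, 0.18 for Mthfd2, 0.19 for Atf5, 0.21 for Asns and -0.17 for Phgdh, with adjusted p from 0.317 to 0.826. The interaction, which asks whether the TAC response itself differed between genotypes, called 0 of 9 in edgeR and in DESeq2, against 0.0109% of all genes in edgeR. The unadjusted p was under 0.05 for 0 of the 9 and for 11.1% of all genes. It was 0.14 for Atf4 (-0.13 to 0.40), 0.28 for Mthfd2 (-0.21 to 0.76) and 0.26 ± 0.58 for Gdf15. Without KO TAC 4 these were 0.17, 0.23 and 0.35, and 0 of 9 were called, so the called rises above are not shown to differ between Ctrl and KO hearts.

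Spread within groups was not the same for all of the transcripts. Ctrl TAC 1 was the highest Ctrl TAC library for 7 of the 10, and KO TAC 2 the highest KO TAC library for 6. Both numbers include Fgf21, which had only 2 and 7 counts in these libraries, and the same was not counted over all genes. Among the 8 sham hearts, the 4 animals whose numbers start with 33 (Ctrl sham 4 and KO sham 1 to 3) had Atf4 at 57.0 to 62.9 CPM and Gdf15 at 1.55 to 3.56 CPM. The other 4 sham hearts had Atf4 at 45.9 to 51.7 CPM and Gdf15 at 1.13 to 1.52 CPM, with no overlap for these genes and overlap for the other 8. The share of all genes that separate in this split was not computed, so it is not shown to be particular to these genes. The meaning of the numbers is not given in the sources used here, and no TAC animal has a number of that series. With a term for it, the KO sham vs Ctrl sham estimates became -0.04 for Atf4 and -0.07 for Gdf15, and were not called.

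Over the deviations of the 16 libraries from their group means, Pearson r of log2 CPM was 0.68 between Atf4 and Gdf15, 0.57 between Atf4 and Mthfd2 and 0.52 between Mthfd2 and Gdf15. For Asns with Gdf15 it was 0.54, and for Atf5 0.50 with both Mthfd2 and Gdf15. For Atf4 with Asns it was 0.03, and with Psat1 -0.14. The remaining pairs ran from -0.23 (Atf4 with Phgdh) to 0.46 (Psat1 with Trib3). The spread of r over all genes is not given here. These are descriptions over libraries that share their groups and scaling. The genes most like Gdf15 over the 16 libraries were Tlr4 (r = 0.978, and 0.903 for the deviations), Mtpn (0.967) and Plekho1 (0.966). Those most like Atf4 were Atox1 (0.957), Carhsp1 (0.952) and Pon2 (0.949), and those most like Mthfd2 were Lrp11 (0.953), Phlda3 (0.946) and Igfbp6 (0.945). For Psat1 they were Actr1a (0.923), Fam214b (0.921) and Trp53inp2 (0.917). The best match of the other 5 was weaker, at 0.884 for Atf5 (Usp16) and Asns (Gm3839), 0.876 for Phgdh (B430306N03Rik), 0.868 for Shmt2 (2210407C18Rik) and 0.894 for Trib3 (C9orf72).

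**Figure D3:**
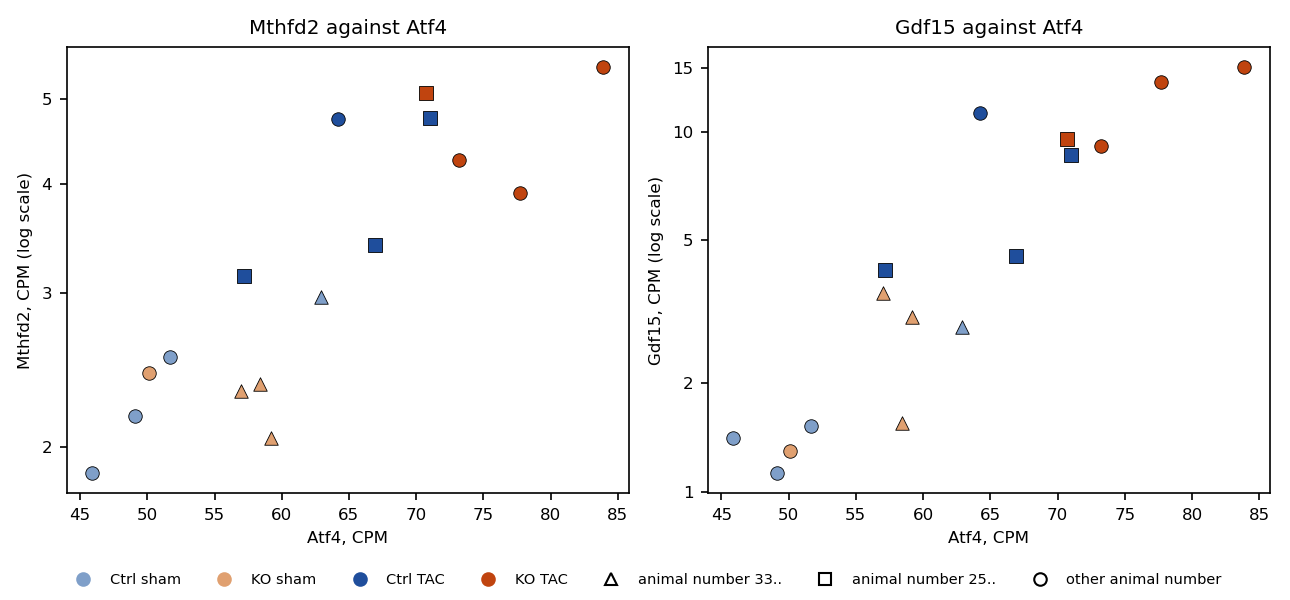
Mthfd2 (left) and Gdf15 (right) in CPM on log axes against Atf4 in CPM on a linear axis, 1 point per library, coloured by group and shaped by the first digits of the animal number. KO TAC libraries lie at the upper right with Atf4 at 70.7 to 83.9 CPM, a range that includes Ctrl TAC 4 (Atf4 71.0 and Mthfd2 4.76 CPM). Ctrl TAC 1 has Gdf15 at 11.3 CPM, above KO TAC 3 and 4 (9.10 and 9.54 CPM). Sham libraries with numbers starting with 33 (triangles) have Atf4 at 57.0 CPM or more.

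The rest of the pathway was followed in 8 lists of 111 further genes, of which 108 were tested. In Ctrl TAC vs Ctrl sham 16 rose and 15 fell, and in KO TAC vs KO sham 24 rose and 29 fell. These shares, 28.7% and 49.1% of the 108, stand beside the 20.0% and 34.3% of all genes above, and the lists' joint median log2 fold changes were 0.04 and -0.01. The lists differed in direction. Without Ctrl TAC 2 there were 27 called genes in Ctrl hearts, and the share of all genes in that fit is not reported here. Without KO TAC 4 there were 50 in KO hearts (46.3%, beside 31.0% of all genes). There, amino acid transporters had 5 higher and 0 lower, and mitochondrial chaperones and proteases 9 lower. The counts of the other 6 lists were as given below. Of the list genes named below with a call in KO TAC vs KO sham, Slc7a1 lost it without KO TAC 4 and the others kept it. Aldh18a1 is left out of this statement, since its value in that fit is not reported here.

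Of the sensors and relays of the eIF2alpha switch upstream of Atf4, 4 of 16 were called in Ctrl and 5 of 16 in KO hearts (25.0% and 31.2%), shares close to those over all genes (20.0% and 34.3%). Eif2ak2, the kinase that senses double-stranded RNA, rose (0.24 ± 0.08, adjusted p = 0.0327, and 0.60 ± 0.08, adjusted p = 9.37e-06). Ppp1r15a, the stress-induced subunit that guides the phosphatase back to eIF2alpha, also rose (0.44 ± 0.11, adjusted p = 0.00758, and 0.47 ± 0.11, adjusted p = 0.00212). Dele1, the relay from mitochondria, fell from 124 ± 2.21 to 97.2 ± 4.22 CPM in Ctrl hearts (-0.35 ± 0.05, adjusted p = 3.38e-05). In KO hearts Dele1 fell from 124 ± 2.63 to 88.6 ± 4.81 CPM (-0.48 ± 0.05, adjusted p = 3.71e-07). Eif2ak3, the endoplasmic reticulum kinase PERK, passed in KO hearts (0.26 ± 0.10, adjusted p = 0.0487). Eif2ak4, the amino acid sensor GCN2, did not pass (-0.09 ± 0.09 and -0.14 ± 0.09). The Eif2ak3 call was kept in 5 of the 16 fits with 1 library left out and lost with the term for numbers starting with 33 (0.294), and the Eif2ak2 call in Ctrl hearts was lost without Ctrl sham 1 or 4 or Ctrl TAC 1, 3 or 4 (adjusted p 0.0677 to 0.107).

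Oma1, the protease that cleaves DELE1, was 1 of 2 list genes called between KO TAC and Ctrl TAC hearts. It was at 21.75, 25.24, 23.31 and 22.02 CPM in Ctrl TAC and 17.25, 19.89, 17.07 and 19.45 CPM in KO TAC libraries, with no overlap (log2 -0.33 ± 0.07, adjusted p = 0.0184). In KO hearts it fell with TAC (-0.43 ± 0.07, adjusted p = 7.36e-05), and in Ctrl hearts it was -0.09 ± 0.07 (0.380). The KO TAC vs Ctrl TAC call held without KO TAC 4 (-0.35, adjusted p = 0.0219) but not without Ctrl TAC 2 (-0.28, 0.0731), KO TAC 1 (0.0515) or KO TAC 3 (0.0735). With the term for numbers starting with 25, which 3 of 4 Ctrl TAC and 1 of 4 KO TAC animals have, it was -0.27 (adjusted p = 0.128), and in the fit to the 2 groups the adjusted p was 0.0582. The lower cardiomyocyte marker sum of KO TAC hearts, given above, moved with it, and its part was not tested.

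Nupr1, a stress-induced chromatin protein of the ATF4 and CHOP branch, was the other. Ctrl TAC libraries were at 6.74, 3.23, 4.21 and 8.03 CPM and KO TAC libraries at 10.1, 10.6, 9.37 and 8.62 CPM, with no overlap (0.80 ± 0.19, adjusted p = 0.0389). After TAC it rose 2.28-fold in Ctrl hearts (1.19 ± 0.21, adjusted p = 0.000549) and 3.70-fold in KO hearts (1.89 ± 0.20, adjusted p = 2.26e-06). The difference between genotypes held without KO TAC 4 (0.85, adjusted p = 0.0455) but was called in 7 of the 16 fits with 1 library left out. The call was lost without Ctrl sham 3 or 4, KO sham 1 or 2, Ctrl TAC 2 or 3, or KO TAC 1, 2 or 3 (adjusted p 0.0506 to 0.0990), and without Ctrl TAC 2 the value was 0.61. It was also lost with the term for numbers starting with 25 (0.66, adjusted p = 0.199) and in the fit to the 2 groups (0.160). The higher fibroblast marker sum of KO TAC hearts moved with it, and its part was not tested. These 2 genes, 1.85% of the 108, stand beside the 1.36% higher and 1.32% lower among all genes, 2.68% in all.

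Partners and other targets of ATF4 did not share a direction. Of 16 genes, 1 rose and 3 fell in Ctrl hearts and 3 rose and 4 fell in KO hearts. These shares, 25.0% and 43.8%, stand beside 20.0% and 34.3% of all genes. Atf3, an early stress transcription factor, rose 4.59-fold in KO hearts (2.20 ± 0.55, adjusted p = 0.00722, and 2.35 without KO TAC 4), while in Ctrl hearts it was 1.13 ± 0.54 (0.176). Ddit3, which encodes CHOP, did not pass (0.14 ± 0.11 and 0.18 ± 0.11). Chac1, which degrades glutathione and is induced through ATF4, fell in KO hearts (-0.63 ± 0.18, adjusted p = 0.0102). In Ctrl hearts Chac1 was at -0.45 to -0.22 over the 16 fits with 1 library left out and was not called. Cth, the cysteine-forming enzyme of transsulfuration, fell in both genotypes (-0.73 ± 0.25, adjusted p = 0.0464, and -1.02 ± 0.25, adjusted p = 0.00348), and so did Gpt2, the mitochondrial alanine aminotransferase (-0.64 ± 0.13, adjusted p = 0.00206, and -0.89 ± 0.13, adjusted p = 5.67e-05). The Cth call in Ctrl hearts was kept in 4 of the 16 fits with 1 library left out (highest adjusted p 0.145) and lost with the term for numbers starting with 25 (-0.49, 0.342).

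In serine, one-carbon and proline synthesis, proline genes rose and parts of the folate pathway fell. Of 17 genes 3 rose and 1 fell in Ctrl hearts, and 5 rose and 5 fell in KO hearts. These shares, 23.5% and 58.8%, stand beside 20.0% and 34.3% of all genes. Pycr1, the last enzyme of proline synthesis, went from 0.348, 0.672, 0.558 and 0.391 CPM in Ctrl sham to 1.72, 1.78, 1.54 and 1.68 CPM in Ctrl TAC libraries. This 3.40-fold rise (1.77 ± 0.19, adjusted p = 4.94e-06) was beside a 1.94-fold rise in KO hearts (0.95 ± 0.19, adjusted p = 0.000603). The KO sham libraries, at 0.696 to 0.930 CPM, lay above the Ctrl sham libraries without overlap, but this difference was not called (0.74 ± 0.20, adjusted p = 1.000). Aldh18a1, the first enzyme of the route, rose in both (0.80 ± 0.09, adjusted p = 6.70e-06, and 0.75 ± 0.09, adjusted p = 4.71e-06). It was added after its values were seen, since it stands beside Pycr1.

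Mthfd1l, which releases formate from mitochondria after the step of Mthfd2, rose with it (0.44 ± 0.14, adjusted p = 0.0297, and 0.56 ± 0.14, adjusted p = 0.00372). Aldh1l2, which oxidizes the same mitochondrial folate unit to carbon dioxide, fell from 7.09 ± 1.48 to 2.94 ± 0.932 CPM in Ctrl hearts (-1.27 ± 0.23, adjusted p = 0.000912). In KO hearts Aldh1l2 fell from 6.73 ± 1.82 to 2.19 ± 0.412 CPM (-1.61 ± 0.23, adjusted p = 5.67e-05). Tyms, the thymidylate synthase of dividing cells, rose in KO hearts (1.03 ± 0.19, adjusted p = 0.000348) and was 0.15 ± 0.19 in Ctrl hearts. Amt, of the glycine cleavage system, fell in KO hearts (-0.41 ± 0.13, adjusted p = 0.0260). In Ctrl hearts Amt was at -0.20 to -0.05 over the 16 fits with 1 library left out and was not called. Genes around the same mitochondrial folate pool thus moved up (Mthfd2, Mthfd1l) and down (Aldh1l2, and Shmt2 in Ctrl hearts). The Mthfd1l call in Ctrl hearts was lost without Ctrl sham 2, Ctrl TAC 2 or Ctrl TAC 4 (adjusted p 0.0568 to 0.117) and with the term for numbers starting with 25 (0.22, 0.445). The Amt call was lost with the term for numbers starting with 33 (-0.17, 0.478) and without KO sham 1, KO sham 2 or KO TAC 3 (0.0682 to 0.0967).

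In the lists of amino acid import and charging, more of the called genes rose than fell. Of 11 tested amino acid transporters 4 rose and 1 fell in Ctrl hearts, and 6 rose and 1 fell in KO hearts, with list medians of 0.18 and 0.39. The called shares, 45.5% and 63.6%, stand beside 20.0% and 34.3% of all genes. Slc1a4, a carrier of serine, alanine and cysteine, rose 2.06-fold and 2.05-fold (1.04 ± 0.18, adjusted p = 0.000376, and 1.04 ± 0.18, adjusted p = 0.000169). Slc7a5, the large neutral amino acid carrier, rose by 0.72 ± 0.12 (adjusted p = 0.000461) and 0.69 ± 0.12 (adjusted p = 0.000316). Its heavy chain Slc3a2 rose in KO hearts (0.40 ± 0.07, adjusted p = 0.000390). In Ctrl hearts Slc3a2 was 0.18 ± 0.07 (0.0915) and passed without Ctrl sham 4 (0.23, 0.0437). Slc7a1, the cationic amino acid carrier, fell (-0.62 ± 0.19, adjusted p = 0.0319, and -0.59 ± 0.19, adjusted p = 0.0259), and the KO call was lost without KO sham 1 or 2 or KO TAC 2 or 4 (0.0602 to 0.0857) and with the term for numbers starting with 33 (-0.32, 0.340). Its Ctrl call was lost without Ctrl sham 2 or 4 or Ctrl TAC 2, 3 or 4 (0.0639 to 0.0982) and with the term for numbers starting with 25 (-0.48, 0.254). Slc7a11, the cystine carrier, was at 0.388 CPM or less in every library and did not pass. Over the 16 fits with 1 library left out its log2 fold change was 0.94 to 1.54 in Ctrl and 0.53 to 0.89 in KO hearts. Of these fits, only that without Ctrl TAC 3 called it, in Ctrl hearts (1.53, adjusted p = 0.0187).

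The list of tRNA charging held 13 cytosolic aminoacyl-tRNA synthetases and Xpot, which exports tRNA from the nucleus and did not pass (0.06 ± 0.05 in both). In Ctrl hearts 4 of these 14 rose and in KO hearts 5 rose, 0 fell, and the list median was 0.07 in both. These shares, 28.6% and 35.7%, stand beside 20.0% and 34.3% of all genes called (10.4% and 17.8% higher). Yars, for tyrosine, rose by 0.28 ± 0.07 (adjusted p = 0.00575) and 0.25 ± 0.07 (adjusted p = 0.00787). Aars, for alanine, rose by 0.24 ± 0.06 (adjusted p = 0.0120) and 0.26 ± 0.06 (adjusted p = 0.00429).

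Mitochondrial chaperones and proteases, the targets that name the mitochondrial unfolded protein response, were called in 1 direction. Of 17 genes 6 fell in Ctrl and 10 in KO hearts (9 without KO TAC 4), and 0 rose in either. The shares with all libraries, 35.3% and 58.8%, stand beside 20.0% and 34.3% of all genes called (9.60% and 16.5% lower). Hspd1, the matrix chaperonin HSP60, fell from 393 ± 54.0 to 334 ± 9.73 CPM in Ctrl hearts (-0.24 ± 0.08, adjusted p = 0.0459), a call kept in 5 of the 16 fits with 1 library left out. In KO hearts Hspd1 fell from 411 ± 22.2 to 301 ± 25.7 CPM (-0.45 ± 0.08, adjusted p = 0.000270, and -0.49, adjusted p = 0.000405, without KO TAC 4). Spg7, a subunit of the inner membrane m-AAA protease, fell by 0.19 and 0.33 on the log2 scale (adjusted p = 0.0292 and 0.000311), with the Ctrl call lost without Ctrl sham 1 or 2 or Ctrl TAC 1 or 4 (0.0586 to 0.113). Lonp1, the matrix protease and an ATF4-linked gene, did not pass (0.14 ± 0.06 and 0.11 ± 0.06), but rose with the term for numbers starting with 25 (0.26, adjusted p = 0.0131, and 0.15, adjusted p = 0.0358). In KO TAC vs Ctrl TAC edgeR called 0 of 17, with a list median of -0.11 and 0 estimates above 0. The unadjusted p was under 0.05 for 6 of the 17 and for 18.5% of all genes. The cardiomyocyte markers fell in the same comparisons, and their part in this was not tested.

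**Figure D4:**
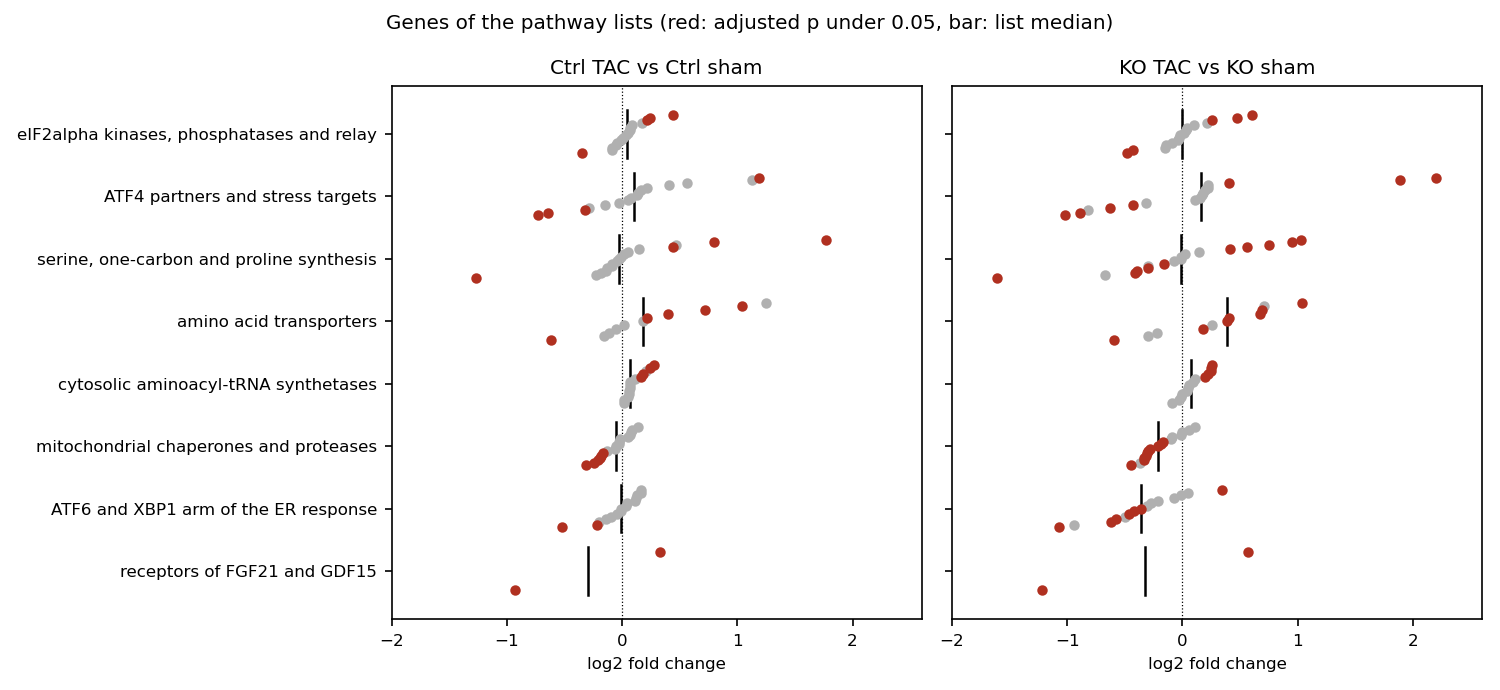
Log2 fold change of each tested gene of the 8 pathway lists in Ctrl TAC vs Ctrl sham (left) and KO TAC vs KO sham (right), 1 point per gene, red for an adjusted p under 0.05, with a black bar at the list median. Red points of the mitochondrial chaperones and proteases lie below 0 in both panels, and those of the list of tRNA synthetases, which includes Xpot, lie above 0.

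In the parallel ATF6 and XBP1 arm of the endoplasmic reticulum response 2 of 15 genes fell in Ctrl hearts (13.3%, beside 20.0% of all genes called). In KO hearts 6 fell and 1 rose (46.7%, beside 34.3%). Herpud1, a factor of protein degradation at the endoplasmic reticulum, went from 207 ± 39.1 to 144 ± 21.5 CPM in Ctrl hearts (-0.52 ± 0.14, adjusted p = 0.0138, and 0.0504 without Ctrl sham 1). In KO hearts Herpud1 went from 214 ± 22.6 to 102 ± 12.2 CPM (-1.07 ± 0.14, adjusted p = 2.25e-05). Hspa5, the chaperone BiP, fell in KO hearts (-0.62 ± 0.14, adjusted p = 0.00329), with a value of -0.40 without KO sham 3 and a lost call with the term for numbers starting with 33 (-0.35, adjusted p = 0.123). It was -0.14 ± 0.14 in Ctrl hearts (0.536). Edem1, which directs misfolded glycoproteins to degradation, rose in KO hearts (0.34 ± 0.08, adjusted p = 0.00285). In Ctrl hearts Edem1 was at 0.10 to 0.24 over the 16 fits with 1 library left out. Of these fits, only that without Ctrl sham 4 called it (adjusted p = 0.0297).

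Of the hormone receptors, Gfral, the receptor of GDF15, had 0 counts in all 16 libraries, and Klb, the coreceptor of FGF21, was at 0.157 CPM or less. These were named after their values were seen, as was Slc7a3, the remaining list gene below the filter. Ret, the signalling partner of GFRAL, fell from 7.86 ± 3.39 to 4.12 ± 0.453 CPM in Ctrl hearts (-0.93 ± 0.23, adjusted p = 0.0101) and from 8.08 ± 1.95 to 3.48 ± 0.341 CPM in KO hearts (-1.22 ± 0.23, adjusted p = 0.000790). Fgfr1, a receptor for many FGF ligands, rose (0.33 ± 0.08, adjusted p = 0.00772, and 0.57 ± 0.08, adjusted p = 3.54e-05). Each of these receptor calls held without KO TAC 4. The Ret value in Ctrl hearts was -0.59 without Ctrl sham 4, and its call was lost with the term for numbers starting with 25 (-0.84, adjusted p = 0.100).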

How the data were processed

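The values the authors deposited were unnormalized read counts in a single matrix, Ensembl identifiers by animals. The submitters' processing notes name cutadapt 2.3, FastQC, HISAT2 2.1.0, edgeR 3.26.1 and the build GRCm38. The counting program, annotation and strand setting are not given in the sources used here. Reads were paired, 150 bases, from poly(A)-selected libraries per the labels. Replicates are separate animals, and total counts were 53169437 to 79404714. Columns were matched by animal number.

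Symbols and positions came from GENCODE M21 (GRCm38), which held 99.5% of the identifiers, and promoter windows from RefSeq. Genes were filtered with filterByExpr and scaled by TMM in edgeR 4.0.16 (R 4.3.3). A quasi-likelihood model with 1 mean per group was fitted to 16 libraries (robust), and 5 contrasts were tested two-sided over 18275 genes with Benjamini-Hochberg adjustment and a threshold of 0.05. Intervals are 95% t intervals from that fit. The code was tested on simulated data. Fgf21 failed the filter and was tested by exact permutation of log2 CPM (prior count 2). Alternatives were RLE scaling, DESeq2 1.42.0, no filter, at least 10 counts in every library, a threshold of 0.01, terms for animal numbers starting with 25 or with 33, the 2 groups alone, each library left out, and Ctrl TAC 2 and KO TAC 4 left out together.

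Text names all 10 genes of the pathway, 15 preset pathway genes, per list the 2 largest rises and 2 largest falls among genes called after TAC, every list gene called between genotypes, and the 3 genes most like each transcript. Genes and lists were chosen with earlier results of these data known.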

Additional observations from a re-analysis of the deposited data

Results flagged for a closer look

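Of 40 sets of 4 libraries screened (10 transcripts in 4 groups), 2 had a library whose gap to the nearest other exceeded Dixon's 95% critical value, and chance flags about 1 set in 20. Trib3 was at 2.88 CPM in KO sham 4, against 2.22 to 2.24 CPM in the other KO sham hearts. Fgf21 was at 0.0352 CPM (2 counts) in Ctrl TAC 1 and at 0 in the other Ctrl TAC hearts.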

How the results depend on the processing

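The rises of Gdf15 and Mthfd2 in both genotypes, of Atf4 in KO hearts and of Psat1 in Ctrl hearts were called in each of the 16 fits that left out 1 library. No member of the pathway was called in KO sham vs Ctrl sham, KO TAC vs Ctrl TAC or the interaction under any alternative run, DESeq2 included. Members called in Ctrl TAC vs Ctrl sham (5) were 3 at a threshold of 0.01, 3 with a term for numbers of the 25 series and 3 to 6 with 1 library left out, and those in KO TAC vs KO sham (5) were 3 at 0.01. Pathway list genes called in Ctrl TAC vs Ctrl sham (31) were 16 at 0.01 and 20 with the 25 term. Those in KO TAC vs Ctrl TAC (2) were 0 at 0.01, with the 25 term, in the fit to the 2 groups and with Ctrl TAC 2 and KO TAC 4 left out together, 1 without a filter, 4 with the stricter filter or the 33 term, 9 in DESeq2, and 0 to 4 with 1 library left out. The counts at 0.01 follow from the threshold, and for the others the cause was not tested. Shares of all genes called under these settings are not reported here. The counts therefore describe the dependence on processing and are not results about the pathway. With the 25 term Atf4 and Shmt2 were no longer called in Ctrl hearts (adjusted p 0.0617 and 0.401), and with the 33 term Psat1 was no longer called in KO hearts (0.134). Atf4 in Ctrl hearts was also lost in the fit to the 2 groups (0.0549).

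Some estimates that were called under no setting changed sign, Gdf15 in KO sham vs Ctrl sham (0.47) and its interaction (0.26) among them. In KO sham vs Ctrl sham the 33 term gave -0.04 for Atf4, 0.02 for Shmt2, 0.05 for Trib3 and -0.07 for Gdf15. In KO TAC vs Ctrl TAC the 25 term gave -0.00 for Asns, -0.00 for Shmt2 and 0.00 for Trib3, and leaving out both libraries gave -0.06 for Psat1. The interaction was -0.01 for Asns and -0.03 for Gdf15 with the 25 term, and for Trib3 -0.08 with the 33 term and -0.12 without both libraries. Ddit3 in Ctrl TAC vs Ctrl sham was -0.02 with the 25 term. With 1 library left out, KO sham vs Ctrl sham ranged from -0.05 to 0.11 for Asns, -0.04 to 0.31 for Phgdh, -0.03 to 0.05 for Shmt2 and -0.16 to 0.06 for Mthfd2, KO TAC vs Ctrl TAC from -0.07 to 0.06 for Psat1 and -0.10 to 0.02 for Trib3, and the interaction from -0.06 to 0.11 for Trib3 and -0.08 to 0.57 for Gdf15. The labels give no replicate numbers shared between groups. No paired analysis was possible because the animal numbers differ between groups.

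Scaling by RLE gave a median over all genes of 0.003 in Ctrl TAC vs Ctrl sham, against 0.004 with TMM, and -0.006 against -0.004 in KO TAC vs KO sham. With 4 animals a group, precision is that of the 95% intervals above, and Fgf21 was limited by depth and by the number of animals.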
